A study of Mus musculus with 5 samples.

Results

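The miRNAs described here are those encoded opposite the coding sequence of Rtl1 in the imprinted Dlk1-Dio3 region of the mouse. They were chosen by name, as every probe for an arm of miR-127, miR-136, miR-431, miR-433 and miR-434. Of the 1900 mouse miRNAs on the array, 10 met this rule, the -5p and the -3p arm of each of the 5 hairpins, and the rule itself uses no intensity. Levels were measured in total RNA of female mouse back skin on single-colour (Cy3) miRNA arrays, with 1 array for each of 5 conditions. The aged animals were 2 years old. Their skin was profiled unwounded (D0) and at D3, D5 and D7 after a full-thickness punch wound of 3 mm, made while the hair follicles were in telogen. Young animals were 8 weeks old, and only their unwounded skin (young D0) is included, since the arrays of young wounds were not analysed here. Strain, the number of animals behind each RNA and any pooling are not given in the sources used here. No group was replicated, so no difference could be tested across animals, and no p-value is given.

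Dlk1-Dio3 is an imprinted region, in which genes are read from the chromosome of a single parent. The paternal chromosome expresses the protein-coding genes Dlk1, Rtl1 and Dio3. The maternal chromosome expresses long non-coding RNAs and a large number of miRNAs. Rtl1 is a retrotransposon-derived gene needed by the placenta and active in fetal muscle. The miRNAs opposite it come from a maternal antisense transcript that is fully complementary to Rtl1 mRNA, which they can direct to cleavage. In other tissues and towards other mRNAs they act as ordinary miRNAs, which recognise targets mainly through the seed, bases 2 to 8 of the mature strand.

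RefSeq (GRCm38.p6) places all 5 hairpins on the plus strand of chromosome 12, inside the span of Rtl1 at chr12:109564900-109604418. From 5′ to 3′ they are Mir431 at chr12:109590447-109590537, Mir433 at chr12:109591715-109591838, Mir127 at chr12:109592846-109592915, Mir434 at chr12:109594506-109594599 and Mir136 at chr12:109595327-109595388. Gaps between neighbouring hairpins were 1177, 1007 and 1590 bases from Mir431 to Mir434. A further hairpin, Mir3071, starts 718 bases beyond Mir434. It lies on the minus strand at chr12:109595318-109595397 and covers Mir136 completely.

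**Figure D1:**
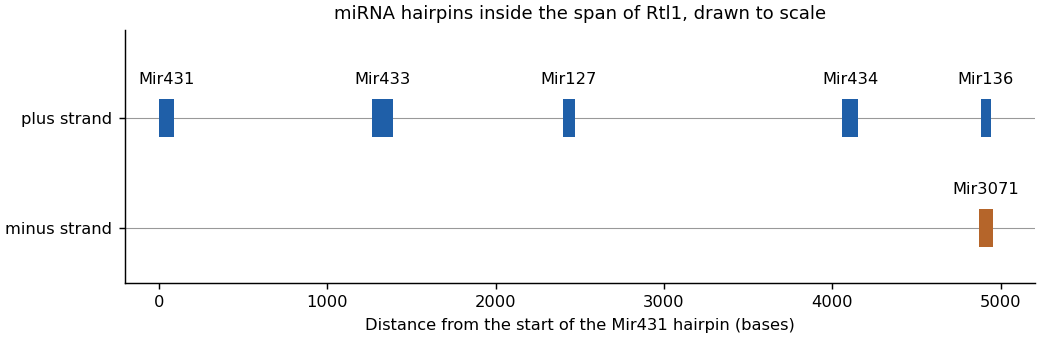
Positions of the 5 hairpins antisense to Rtl1 (blue, plus strand) and of Mir3071 (brown, minus strand), as bases from the start of Mir431. Mir136, at the far end, lies entirely within Mir3071 on the opposite strand.

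The mature strands are given because the arms of a hairpin and the neighbouring hairpins were each read by their own probe. The array's target sequence was identical to the RefSeq mature sequence for 10 of 10 arms. Capitals mark the seed.
mmu-miR-431-5p: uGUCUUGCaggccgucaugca
mmu-miR-431-3p: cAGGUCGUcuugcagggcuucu
mmu-miR-433-5p: uACGGUGAgccugucauuauuc
mmu-miR-433-3p: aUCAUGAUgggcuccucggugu
mmu-miR-127-5p: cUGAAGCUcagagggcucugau
mmu-miR-127-3p: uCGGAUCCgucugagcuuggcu
mmu-miR-434-5p: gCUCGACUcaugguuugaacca
mmu-miR-434-3p: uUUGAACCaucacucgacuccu
mmu-miR-136-5p: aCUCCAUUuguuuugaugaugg
mmu-miR-136-3p: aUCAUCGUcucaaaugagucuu

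The 10 arms carried 10 different seeds, and none of these seeds occurred in any other arm on the array, so the cluster shares a position and not a seed. Their GC content ran from 36.4% in both arms of miR-136 to 59.1% in miR-127-3p and miR-431-3p, around an array median of 52.2%. The longest run of bases shared by a pair of the 10 arms was 10 bases, between both arms of miR-431, followed by 9 bases between both arms of miR-434. In the hairpins of the 2 members detected on all 5 arrays, capitals mark the mature arms.
Mir127: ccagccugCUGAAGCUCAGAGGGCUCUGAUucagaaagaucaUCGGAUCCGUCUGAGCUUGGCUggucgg
Mir434: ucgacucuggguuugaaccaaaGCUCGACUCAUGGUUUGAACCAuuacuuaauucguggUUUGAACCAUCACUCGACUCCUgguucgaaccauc

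Each miRNA was read by 2 spots on every array. Scanned intensity is the median of the spot's pixels as deposited, on a linear scale and without local background. A miRNA was called detected when the mean of its spots exceeded the 95th percentile of the 4 empty spots of the array. This level was 107 on the young array and 105, 58.3, 61.1 and 99.0 on the aged arrays D0, D3, D5 and D7, and between 589 and 1768 of the 1900 miRNAs passed it. On the aged D0 array the background fell across the slide, from 114 in the first 20 of 128 rows to 75.7 in the last 20. The other arrays changed less between these ends, most at D5, from 69.9 to 57.8, and at D7, from 108 to 121. The empty spots all lie in row 1, which is at the brighter end of the aged D0 array. For miR-431, miR-433 and miR-434 the second spots lie in rows 113 to 119, and at aged D0 they read dimmer than the first spots for all 6 arms. Detection was therefore also judged locally. An arm counted as detected against the nearby rows when its mean exceeded their level by more than 3 SD of a mean of 2 spots, with the SD taken from spots that read below their own nearby rows.

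A hairpin often yields more of one mature arm than of the other. On these arrays the -3p arms of miR-127 and miR-434 were the members with signals clear of background. By the empty spots, 2, 10, 7, 10 and 7 of the 10 arms were detected, in the order aged D0, D3, D5, D7 and young D0. Against the nearby rows these counts were 1, 3, 4, 6 and 5. Above 2 times the detection level there were 1, 1, 2, 2 and 2 arms, and these were miR-127-3p on every array and miR-434-3p at D5, D7 and young D0.

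The mmu-miR-127-3p spots read 403 and 376.99 at aged D0 and 389 and 351 in the D3 wound. They read 878 and 726 in the D5 wound, 1170 and 872 in the D7 wound, and 2377 and 2166 at young D0. Before any normalization, the spots of unwounded aged skin and the D3 wound overlapped at the low end, those of D5 and D7 overlapped at a higher level, and those of unwounded young skin lay above the spots of the 4 aged arrays. Above the level of the nearby rows the means were 279, 304, 734, 913 and 2173, in the order aged D0, D3, D5, D7 and young D0.

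The mmu-miR-434-3p spots read 119 and 99.8 at aged D0 and 113 and 118 in the D3 wound. They read 119 and 142.02 in the D5 wound, 342 and 422 in the D7 wound, and 592 and 735 at young D0. Aged D0, D3 and D5 lay close together, and their spots touched or overlapped. D7 and young D0 stood apart from them. At aged D0 the mean of 110 was only just above the detection level, and it was not detected against the nearby rows, so each ratio with aged D0 for this arm rests on a spot pair close to background. Above the nearby rows the means were 21.3, 45.3, 68.7, 265 and 566.

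**Figure D2:**
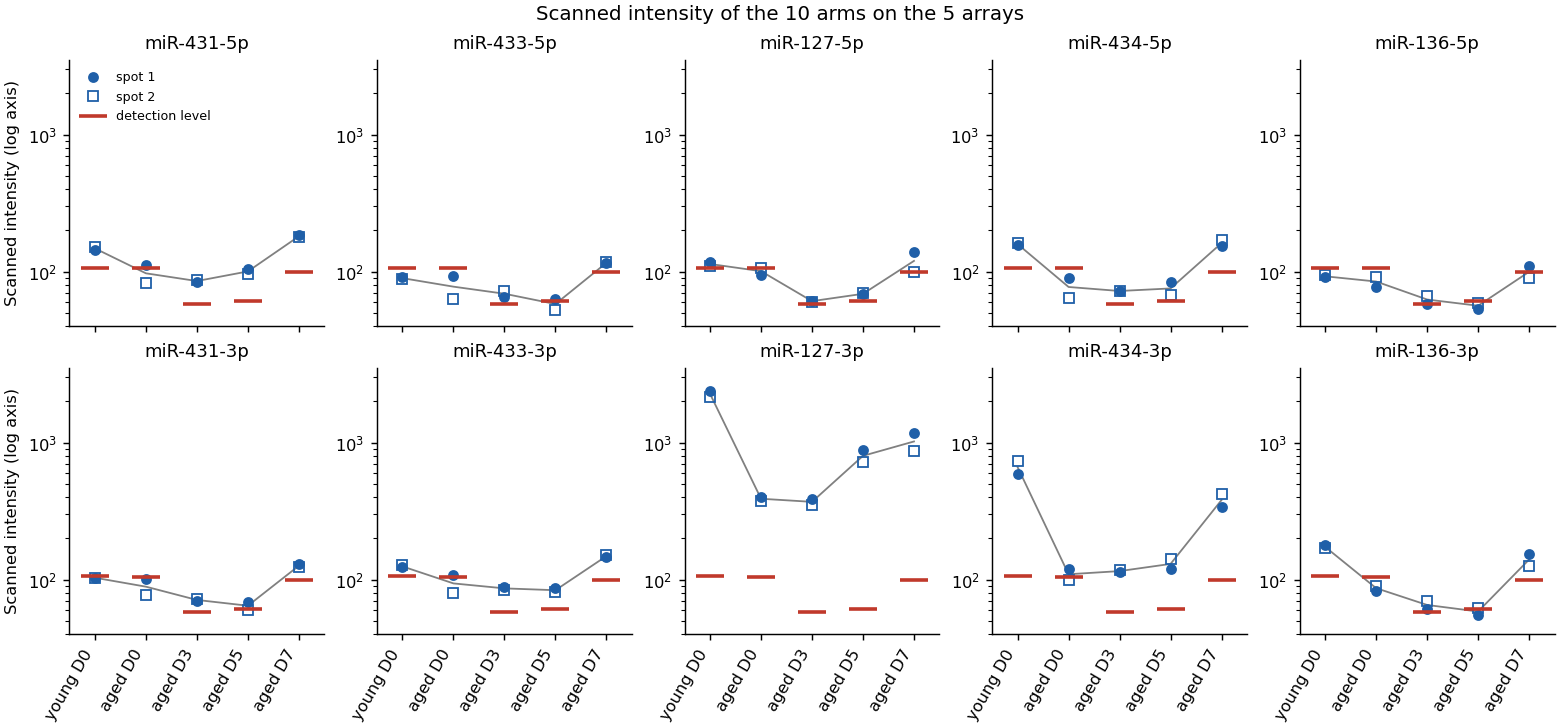
Scanned intensity (log axis) of the 10 arms on the 5 arrays, with both spots of each arm, their mean as a line and the detection level of each array as a red bar. miR-127-3p lies above the level on 5 arrays and is highest at young D0, with a mean of 2272, while miR-127-5p and miR-136-5p stay near the level throughout.

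The other 8 arms stayed within 56.4 to 181 on all arrays. The mmu-miR-127-5p arm, the partner of miR-127-3p in its hairpin, had means of 101, 60.9, 68.9, 120 and 114 in the order aged D0, D3, D5, D7 and young D0. It was at most 16.1 above the level of the nearby rows, at young D0, and was detected against them on 0 of 5 arrays. The mmu-miR-136-5p arm read 84.7, 62.6, 56.4, 99.7 and 92.5 in the same order and likewise was detected against the nearby rows on 0 arrays.

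The mmu-miR-136-3p arm read 86.8, 65.4, 58.6, 140 and 174 in that order. It was detected against the nearby rows at D7, where it exceeded them by 30.8, and at young D0, by 77.0. The miR-434-5p arm had the same split, with means of 77.3, 72.2, 75.4, 162 and 159, of which D7 and young D0 were detected against the nearby rows. The miR-431-5p arm read 97.2, 85.4, 100.4, 181 and 148 and was detected against the nearby rows at D5, D7 and young D0, while miR-433-3p read 94.0, 86.5, 83.8, 149 and 125 and was so detected at D3, D5 and D7. At young D0 miR-433-3p exceeded the nearby rows by 28.1, which was under 3 SD on that array. The miR-431-3p and miR-433-5p arms were at most 11.2 and 0.40 above the nearby rows, both at D7, and passed the 3 SD limit on no array. Thus none of the 8 dimmer arms was detected in unwounded aged skin, by either way of setting background, and 4 of them passed the 3 SD limit on no array.

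The processed intensities deposited by the authors, whose normalization is not named in the sources used here, gave miR-127-3p as 388, 413, 1069, 793 and 929 in the order aged D0, D3, D5, D7 and young D0. On the same scale miR-434-3p was 31.1, 64.6, 99.5, 236 and 279. After normexp background correction and quantile normalization, the main setting here, miR-127-3p was 557, 435, 1304, 861 and 947, and miR-434-3p was 98.8, 138, 181, 319 and 338. The 2 sets of values rank D5 highest for miR-127-3p and young D0 highest for miR-434-3p. Scanned intensities rank young D0 highest for both arms.

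For miR-127-3p the order of normalized levels was D3, aged D0, D7, young D0 and D5, from low to high. Of these neighbours, D7 and young D0 differed by 0.14 on the log2 scale, less than 1 SD of repeat spots (0.22), and the other neighbours differed by more than 2 SD. For miR-434-3p the order was aged D0, D3, D5, D7 and young D0. The neighbours aged D0 and D3 (0.48 against an SD of 0.24) and D7 and young D0 (0.08 against 0.22) lay within 2 SD of each other, whereas D3 and D5 (0.39 against 0.14) and D5 and D7 (0.82 against 0.22) did not. The SD is that of log2 ratios between repeat spots of 1 array pair and describes the array, not the spread between animals or the effect of scaling. Both orders changed with scaling. For miR-127-3p, young D0 was highest without normalization and with cyclic loess, median, spike or 5S scaling. With cyclic loess, median scaling and the authors' values, D3 lay above aged D0 for this arm. For miR-434-3p, D7 was highest with 75th-percentile scaling, which also put D3 below aged D0. With spike scaling its aged D0 level lay above D3 and D5.

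The first comparison asked how unwounded skin differed with age. miR-127-3p was lower in aged than in young skin, with a ratio of 0.588 (0.579 and 0.598 from the separate spots). miR-434-3p was also lower, with a ratio of 0.293 (0.380 and 0.225). It was 0.336 when the level of the nearby rows was subtracted first, with the array's median level added back before normexp and quantile normalization. The unnormalized means above the nearby rows gave a ratio of 0.0375, with the aged D0 mean close to background. A further 5 arms were detected on the young array alone, so only bounds can be given, here after quantile normalization. By these bounds young skin was at least 1.35-fold higher for miR-136-3p, 1.29-fold for miR-434-5p, 1.22-fold for miR-431-5p, 1.10-fold for miR-433-3p and 1.03-fold for miR-127-5p. Here and in the wound comparisons, a bound was kept only in the direction of the array that detected the arm. Its direction was thus fixed in advance. Bounds also take no account of spot noise, here an SD of 0.22 in log2 ratio for dim miRNAs. The miR-127-5p spots gave aged over young ratios of 0.827 and 1.01. With scaling to the 75th percentile the aged over young ratios of these 5 arms lay above 1, from 1.67 to 3.16, so their direction depends on scaling. A ratio of at least 2-fold was reached by 1 of the 7 arms detected on 1 array or both, miR-434-3p, which was lower. Over the 779 miRNAs, 5.26% were at least 2-fold lower and 2.31% at least 2-fold higher in aged skin.

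How far the age difference goes depends on scaling. Among the 210 miRNAs that were bright (above 2 times the detection level) on both arrays, the median aged over young ratio was 1.16 after quantile normalization, 0.462 without normalization and 0.576 when scaled to the spike controls, oligonucleotides added at labelling. Relative to that median, miR-127-3p was 0.509 and miR-434-3p 0.253, and across the settings these relative values ran from 0.372 to 0.531 and from 0.104 to 0.359. Of the 210 bright miRNAs, 185 had a larger ratio than miR-127-3p and 202 a larger ratio than miR-434-3p. The ratio itself was below 1 in 12 of 12 alternative settings for both arms, with ranges of 0.158 to 0.610 and 0.111 to 0.557.

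**Figure D3:**
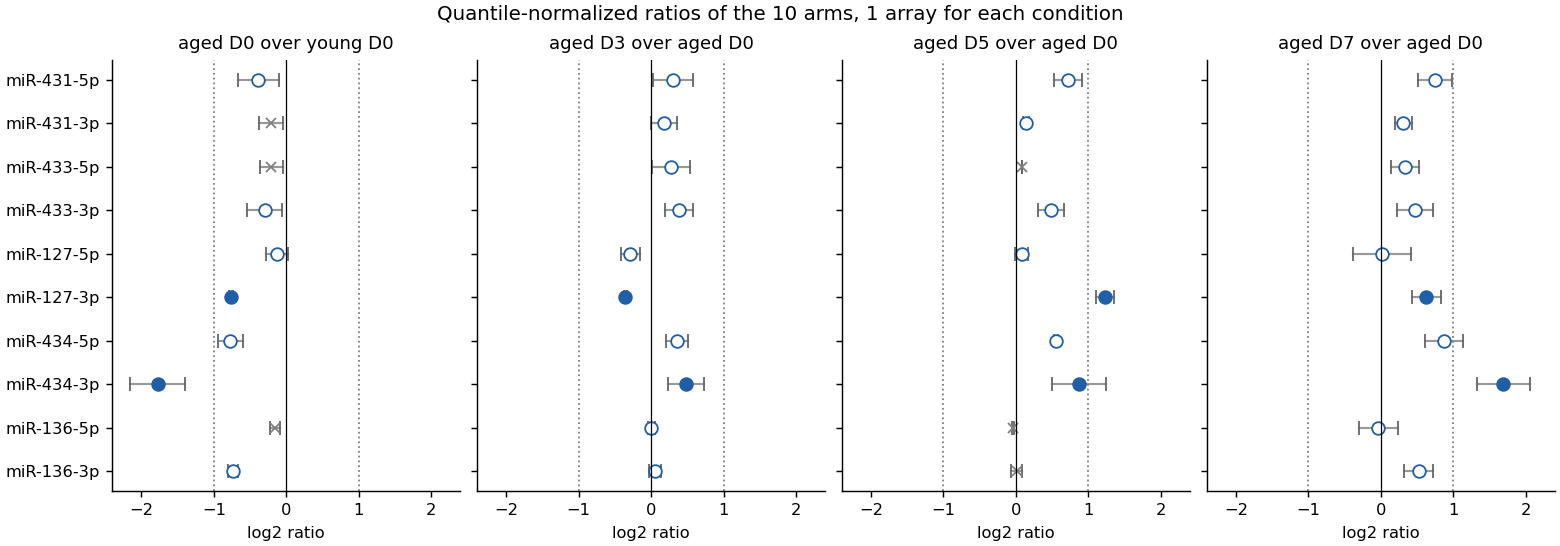
log2 ratios of the 10 arms in the 4 comparisons after quantile normalization. Filled circles were detected on both arrays, open circles on 1 array, and crosses on neither; short bars joined by a line are the separate spots and dotted lines mark 2-fold. Only miR-434-3p (aged over young, D7) and miR-127-3p (D5) pass 2-fold.

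The wound comparisons asked how the miRNAs moved as aged skin healed. All 3 use the aged D0 array as denominator, and the age comparison uses it as numerator, so an error of that array enters all 4 in a linked way. Ratios for the 3 wound times are therefore given side by side and not correlated.

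At D3 no member differed by 2-fold from unwounded aged skin. The miR-127-3p ratio was 0.781 (0.791 and 0.771 from the spots), and this was itself the median of the 207 bright miRNAs. In the alternative settings it ran from 0.618 to 1.30, so its direction at D3 is not settled. The miR-434-3p ratio was 1.40 (1.18 and 1.66) and ran from 0.700 to 2.08. Bounds above 1 could be given in the main setting for 2 other arms, at least 1.17-fold for miR-433-3p and 1.15-fold for miR-431-5p. Both scanned dimmer at D3 than at aged D0, 86.5 against 94.0 and 85.4 against 97.2. Each ratio fell below 1 in 4 of 12 alternatives, down to 0.619 and 0.590 with spike scaling, so these directions are not settled. Of the 10 measured members 0 were at least 2-fold higher or lower, where 3.27% of all 1772 miRNAs measured were higher and 2.65% lower.

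At D5 miR-127-3p was 2.34-fold higher than in unwounded aged skin (2.56 and 2.14 from the spots). Of 204 bright miRNAs, 8 had a larger ratio, and relative to the bright median of 0.932 it was 2.51-fold higher. The ratio was above 1 in 12 of 12 alternatives, between 1.56 and 2.76, and the lowest value came from scaling to the spike controls. The miR-434-3p ratio was 1.83 (1.41 and 2.37) and ran from 0.960 to 3.20. In the main setting the dimmer arms, detected at D5 but not at aged D0, gave bounds of at least 1.54-fold for miR-431-5p, 1.25-fold for miR-433-3p and 1.10-fold for miR-434-5p, while miR-136-3p, miR-136-5p and miR-433-5p were detected on neither array. With spike scaling the ratios of miR-431-5p, miR-433-3p and miR-434-5p were below 1, at 0.858, 0.753 and 0.833. In total 1 of 7 measured members was at least 2-fold higher, against 2.69% of all 1079 miRNAs measured (2.41% lower).

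At D7 miR-434-3p was 3.23-fold higher than at aged D0 (2.51 and 4.17 from the spots). With the level of the nearby rows subtracted before normexp and quantile normalization, it was 2.78-fold higher. The unnormalized means above the nearby rows gave 12.5-fold, with the aged D0 mean close to background. This arm was at least 2-fold higher in 12 of 12 alternatives, which ran from 2.05 to 7.59, and 6 bright miRNAs had a larger ratio. The miR-127-3p ratio was 1.54 (1.78 and 1.34), with a range of 1.499 to 3.03, and 27 bright miRNAs exceeded it. The other 8 arms were detected at D7 but not at aged D0, so only bounds above 1 were kept for them. In the main setting 5 had such bounds, at least 1.57-fold for miR-431-5p, 1.37-fold for miR-434-5p, 1.24-fold for miR-433-3p, 1.17-fold for miR-136-3p and 1.04-fold for miR-431-3p. The SD of repeat spots for dim miRNAs, 0.32 in log2 ratio, exceeded the bounds of miR-433-3p, miR-136-3p and miR-431-3p. Against the nearby rows miR-431-3p was not detected at D7. With 75th-percentile scaling the ratios of miR-433-3p (0.865), miR-136-3p (0.861) and miR-431-3p (0.754) fell below 1. Those of miR-431-5p (1.05) and miR-434-5p (1.16) stayed above it. Of the 10 measured members 1 was at least 2-fold higher, against 2.3% of all 1565 miRNAs (1.73% lower).

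In the main setting miR-127-3p had its highest wound level at D5 and miR-434-3p at D7. For miR-434-3p, D7 was the highest wound level also in the scanned and the authors' processed intensities. For miR-127-3p the scanned mean was higher at D7 (1021) than at D5 (802), so which of these times was highest depends on the scaling.

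**Figure D4:**
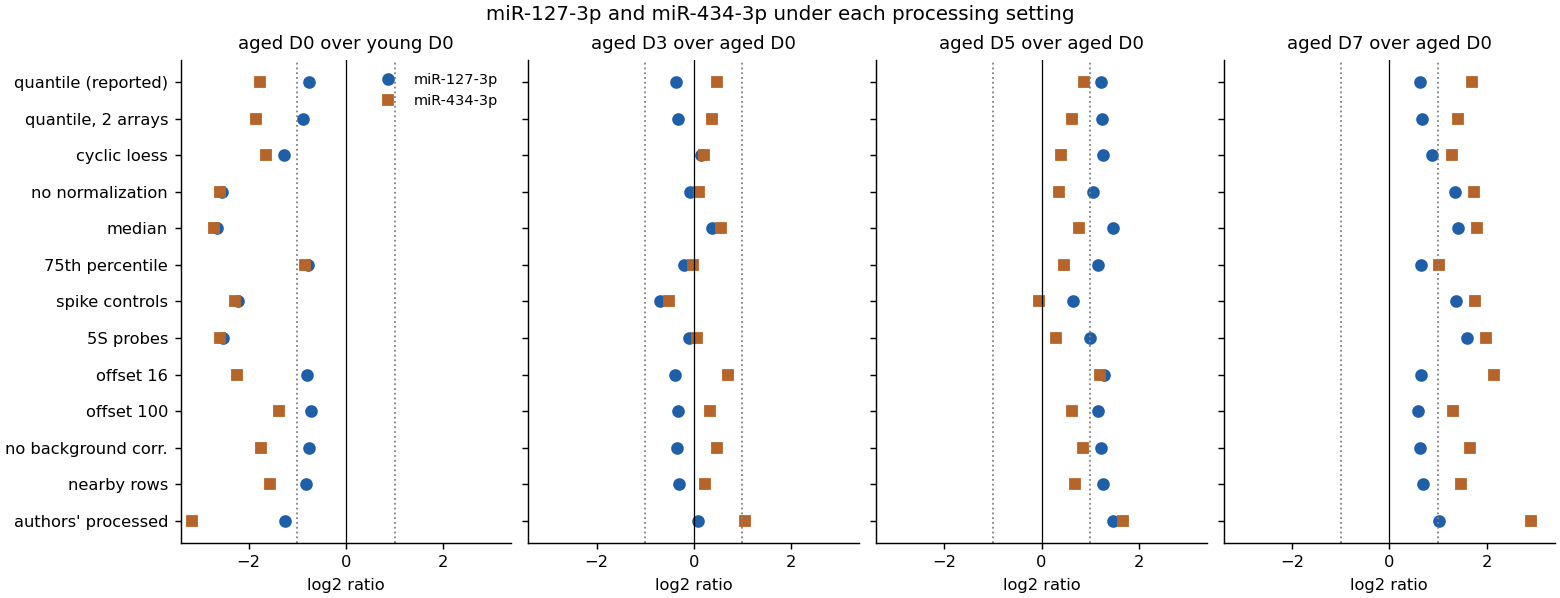
log2 ratios of miR-127-3p (circles) and miR-434-3p (squares) in the 4 comparisons under the reported setting and 12 alternatives, with dotted lines at 2-fold. Both arms lie below 0 in aged over young skin in every setting, and both lie above 0 at D7, whereas at D3 the settings fall on both sides of 0.

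The miRNAs whose levels over the 5 arrays were most like each arm were found among the 289 miRNAs that were bright on at least 3 arrays. Likeness was the root mean square difference of the log2 normalized profiles after each was centred on its own mean. For miR-127-3p the nearest were miR-5107-5p (0.25), miR-150-5p (0.26), miR-379-5p (0.26), let-7j (0.26) and miR-329-3p (0.32), of which miR-379-5p and miR-329-3p are also encoded in Dlk1-Dio3. For miR-434-3p they were miR-7056-5p (0.20), miR-322-5p (0.25), miR-374c-5p (0.26), miR-411-5p (0.26) and miR-29b-3p (0.31), with miR-411-5p from the same region. The distance between miR-127-3p and miR-434-3p was 0.58. By that distance miR-434-3p came 83rd in the list of miR-127-3p, and miR-127-3p came 37th in the list of miR-434-3p. With 5 arrays these distances describe the arrays only.

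The array carries 102 other arms from Dlk1-Dio3, most of them from the clusters that lie downstream towards Dio3, and 98 of these names were found in RefSeq, all 98 on chromosome 12. In aged over young unwounded skin 59 were detected on 1 array or both, 8 were lower by 2-fold or more and 0 higher. Over all 779 miRNAs measured, 5.26% were lower and 2.31% higher. The 8 were miR-299a-5p, miR-299b-5p, miR-376b-3p, miR-376c-3p, miR-379-5p (0.487), miR-411-3p, miR-411-5p (0.439) and miR-668-3p (0.370). At D3, of 100 arms, 1 was higher (miR-665-3p, 9.58-fold) and 1 lower (miR-758-3p), against 3.27% and 2.65% of all miRNAs measured. At D5, of 75 arms, 3 were higher and 0 lower, namely miR-376b-3p, miR-541-5p (2.97-fold) and miR-665-3p (4.85-fold). Of all miRNAs measured at D5, 2.69% were higher and 2.41% lower.

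At D7, of 95 arms, 7 were higher and 0 lower, against 2.3% and 1.73% of all miRNAs measured. The 7 were miR-376a-3p, miR-376b-3p, miR-376c-3p, miR-411-3p, miR-411-5p (2.10-fold), miR-541-5p (2.26-fold) and miR-668-3p (4.18-fold). The miR-376b-3p, miR-376c-3p, miR-411-3p, miR-411-5p and miR-668-3p arms thus appear both among the 8 lower in aged skin and among the 7 higher at D7, 2 comparisons that share the aged D0 array. Among the arms detected on both arrays, the median ratio was 0.783 over 21 arms in aged over young skin and 0.907, 1.14 and 1.004 over 29 arms at D3, D5 and D7. The 2-fold counts of these arms were made in the main setting only, and these medians turned with scaling. In aged over young skin the median was 1.63 with 75th-percentile scaling, at D3 it was 1.11 with median scaling, at D5 it was 0.661 with the spike controls, and at D7 it was 0.699 with 75th-percentile scaling.

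The hairpin opposite Mir136 gives miR-3071. Its 3p arm is complementary to miR-136-5p over 20 of 20 overlapping bases, and its 5p arm to miR-136-3p over 19 of 19, and each arm had a probe of its own. By the empty spots, the miR-3071-3p arm was detected at D3 alone, and miR-3071-5p at D3, D5 and D7 but in neither unwounded skin. These calls follow the differing detection levels, 58.3 at D3 and 105 at aged D0. The 3p arm scanned 59.3 at D3 and 90.7 at aged D0, and the 5p arm 75.2 and 101. Neither was at least 2-fold apart from aged D0 where it was detected, and neither was measured in the age comparison.

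The skin samples hold several tissues, and in bulk RNA fewer cells of a type and less RNA per cell cannot be told apart. Skeletal muscle lies under the back skin, and miR-1a-3p, miR-133a-3p, miR-133b-3p and miR-206-3p are its markers. They were detected on all arrays, and their summed normalized level was 28504, 8817, 12087, 14435 and 32573 in the order aged D0, D3, D5, D7 and young D0. All 4 were at least 2-fold lower at D3, while 1 was at D5, 2 were at D7 and 0 were in the age comparison. After quantile normalization all 4 muscle markers had ratios below 1 at D3, D5 and D7. With median scaling 1 of them, miR-206-3p, reached 1.02 at D7. Their aged over young ratios ran from 0.686 to 1.08 in the main setting. Without normalization these ran from 0.384 to 0.611, and with 75th-percentile scaling from 1.29 to 2.05.

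Fibroblast-associated miR-199a-3p, miR-199a-5p and miR-214-3p summed to 8312, 6139, 11901, 16453 and 7193 in the same order. In the main setting their median ratio was 0.786 at D3, 1.29 at D5 and 2.17 at D7, where 2 of 3 were at least 2-fold higher. With spike scaling their D5 ratios ran from 0.548 to 0.820, all below 1, and with 75th-percentile scaling the lowest at D7 was 0.927. In aged over young skin their median was 1.04, with a range of 0.371 to 0.543 without normalization. The leukocyte markers miR-223-3p, miR-142a-3p, miR-142a-5p, miR-150-5p and miR-155-5p summed to 1088, 5328, 3688, 3707 and 2652. In the main setting their median ratios were 2.92, 2.01 and 4.39 after wounding and 0.268 in aged over young skin. The members did not all move alike, since miR-150-5p had a ratio of 0.743 at D3. The D3 median is that of miR-142a-3p, an arm below the detection level at aged D0 and at least 2.39-fold higher. With spike scaling the lowest leukocyte ratio was 0.588 at D3 and 0.826 at D5, and with 75th-percentile scaling the highest in the age comparison was 1.62.

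Epithelial markers were 7 arms from the miR-200 family, miR-203 and miR-205. In the main setting they had medians of 0.428, 0.536 and 0.571 after wounding and 1.45 in aged over young skin. Their aged over young ratios ran from 0.279 to 1.13 without normalization and from 0.937 to 3.80 with 75th-percentile scaling. With spike scaling the highest at D7 was 1.36. At D3, 5 of the 7 were at least 2-fold lower and 1, miR-200c-3p, was 2.10-fold higher. Erythroid markers had medians of 0.601, 0.646, 0.320 and 2.13, the last with a range of 0.913 to 1.03 under spike scaling. Of the endothelial markers only miR-126a-3p was detected on all arrays, with ratios of 0.714, 1.17 and 1.02 after wounding. Its D5 ratio was 0.551 with spike scaling, and its D7 ratio was 0.728 with 75th-percentile scaling. The part of any of these cell types in the miR-127-3p and miR-434-3p ratios was not tested.

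**Figure D5:**
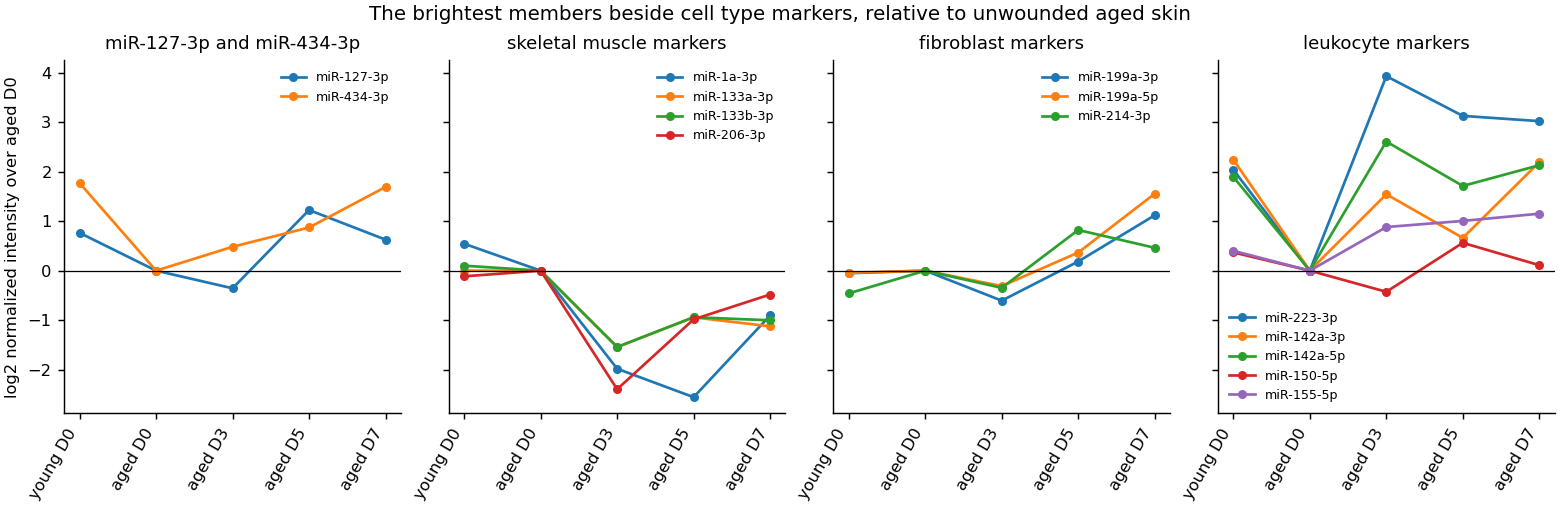
log2 normalized intensity relative to aged D0 on the 5 arrays for miR-127-3p and miR-434-3p and for markers of skeletal muscle, fibroblasts and leukocytes, 1 line for each miRNA. After quantile normalization, muscle markers lie below 0 at each wound time. The lines of miR-127-3p, miR-434-3p and the fibroblast and leukocyte markers lie above 0 at D5 and D7.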

How the data were processed

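The authors deposited the median intensity of each spot as scanned, on a linear scale with empty background columns, and a table of processed intensity whose normalization is not given in the sources used here. Conditions were read from the sample labels. From the scanned values, all spots were background corrected with normexp (limma 3.58.1, R 4.3.3; offset 50, fitted on spot intensities because those columns are empty), control spots were removed, log2 values were quantile normalized over 5 arrays, and repeat spots (2 per miRNA) were averaged. The offset shrinks ratios of dim miRNAs. Where an arm was detected on 1 of 2 arrays, the bound is its level there over a floor on the other array. The floor is the higher of that array's lowest detected level and the arm's own level on it. Bounds in the opposite direction were not kept. Each comparison has 1 array against 1, so counts use a 2-fold threshold and no test; the number of arrays limits the precision. Processed values under 1 were set to 1 before ratios. Tables were made with Python 3.11.15, pandas 2.3.3 and numpy 2.4.6, and plots with matplotlib 3.10.9. The calling step was tested on noisy copies of the aged D0 array with changes planted in bright miRNAs only. That test does not cover dim arms or differences in scale between arrays. Members and marker lists were chosen with earlier results of these data known. Every arm of the rule is described, and other miRNAs are named when on a list, nearest in profile or at least 2-fold apart among the Dlk1-Dio3 arms.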

Additional observations from a re-analysis of the deposited data

How the results depend on the processing

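Ratios of the members were recomputed under 12 alternatives, of which subtraction of the level of nearby rows, like detection against those rows, was chosen after seeing the data. Of 408 recomputed ratios, 239 moved by less than the SD of repeat spots and 169 by more. The number of members at least 2-fold apart changed as follows. At D3 it rose from 0 to 7 with the authors' processed values. At D5 it went from 1 to 0 with spike scaling and at a 3-fold threshold, to 2 with an offset of 16, to 3 at a 1.5-fold threshold and to 6 with the processed values. At D7 it went from 1 to 0 with detection above 2 times the level, to 2 without normalization and with median, spike or 5S scaling, to 3 at 1.5-fold and to 8 with the processed values. In aged over young skin it went from 1 to 0 with 75th-percentile scaling and with detection above 2 times the level, to 2 without normalization, with cyclic loess, with median, spike or 5S scaling and at 1.5-fold, and to 7 with the processed values. Processed values of dim arms near 0 give large ratios by construction. No replicate could be left out. No paired analysis was possible because there was only 1 array per condition. Arms near background limit what 8 of the 10 members can show.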
